A study of Mus musculus with 28 samples.

Results

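Immediate early genes and genes that respond to tissue dissociation were followed in sorted brain microglia and astrocytes, with amyloid and without it. The set holds 34 mouse genes, matched by symbol among the 40481 mouse genes of the count table, and all 34 were found. They comprise 6 transcription factors of the AP-1 family, 10 zinc finger, orphan nuclear receptor or MYC factors, 14 feedback regulators and 4 heat shock proteins. In microglia all 34 passed the filter on low counts, and in astrocytes 33 did, with Egr3 the exception.

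Immediate early genes are transcribed within minutes of a stimulus, before any new protein is made, through factors such as SRF, CREB and NF-kB that are already present in the cell. Their products are transcription factors that drive a later wave of genes, and phosphatases, RNA decay factors and inhibitors that shut the response down again. In microglia they are known to respond to inflammatory signals, and also to the dissociation of the tissue itself, together with heat shock genes that are under the control of HSF1. How long and at what temperature these brains were dissociated was not given in the sources used here.

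Each brain gave a microglia library, sorted by an antibody to CD11b, and an astrocyte library, sorted by an antibody to ACSA-2, so both libraries of a mouse share 1 dissociation. The tissue was cortex, hippocampus and thalamus. All mice, amyloid-free mice included, carried APOE4fl/fl, a floxed human APOE4 gene in both copies, and all received 2 tamoxifen doses of 100 mg/kg at 3.8 months of age, with cells collected 10 days later. APPPS1 mice carry transgenes for mutant amyloid precursor protein and presenilin under the neuronal Thy1 promoter and form plaques. ALDH1L1-CreERT places a Cre that needs tamoxifen under control of Aldh1l1, an astrocyte gene. Astrocytes are thus the cells from which the floxed APOE4 is meant to be removed, and microglia are not the target. The groups compared were APPPS1::APOE4fl/fl::ALDH1L1-CreERT (APPPS1 Cre-positive, mice 443, 458, 460 and 475), APPPS1::APOE4fl/fl (APPPS1 Cre-negative, mice 439, 447, 469, 774 and 779), APOE4fl/fl::ALDH1L1-CreERT (amyloid-free Cre-positive, mice 22 and 26) and APOE4fl/fl (amyloid-free Cre-negative, mice 465 and 759). Values per mouse are given below in this order.

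Mouse 459, an APPPS1 Cre-positive animal, was left out because its library labelled microglia held astrocyte genes and its library labelled astrocyte held microglia genes. The 26 libraries used had 26139519 to 59165002 counts on mouse genes. Human APOE, the floxed gene, stood at 507 to 926 CPM in Cre-positive and at 1052 to 1864 CPM in Cre-negative astrocytes. CPM are counts scaled to the library's total of mouse gene counts, the usual counts-per-million unit. The gene was thus lower with Cre and still present. The 10 microglia markers together made 16828 CPM in the microglia library of mouse 26 and 32401 to 39781 CPM in the other microglia libraries. In astrocytes they made 94.6 to 143 CPM. The 12 astrocyte markers made 261 to 446 CPM in microglia and 29274 to 44467 CPM in astrocytes. In the amyloid-free Cre-positive microglia, mice 22 and 26, the mean of 12 endothelial markers was 3.34 and 4.34 log2 CPM, against 0.87 to 2.61 in the other 11 mice. In the astrocyte libraries the same 2 mice were the lowest for endothelium, at 2.42 and 2.73 log2 CPM, against 3.73 to 6.18 in the other 11. Both mice therefore stand apart in both sorts, and they are the whole of their group.

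The first comparison asks in which cell type the genes were read. Immediate early genes were far more abundant in the microglia libraries: 32 of the 34 members were higher than in astrocytes and 0 were lower, with a median log2 difference of 4.95, where the median of all genes was -0.18. Egr3 passed the filter on low counts through its microglia libraries, which fixed its direction here, and without it 31 of 33 members were higher, with a median of 4.84. Of all 21612 genes tested, 35.4% were higher in microglia, and 76.5% differed in either direction. With another library scaling, the size factors of DESeq2, the median of all genes was -0.30 and the same 32 members passed. The tests scale libraries by TMM and weight the genotype groups equally, while CPM means and medians are unscaled and weight the mice equally. For Hsp90aa1 and Gadd45g the order of the sorts differs between these 2 measures, as given below. In a sort, fewer cells of a type and less RNA per cell cannot be told apart.

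**Figure D1:**
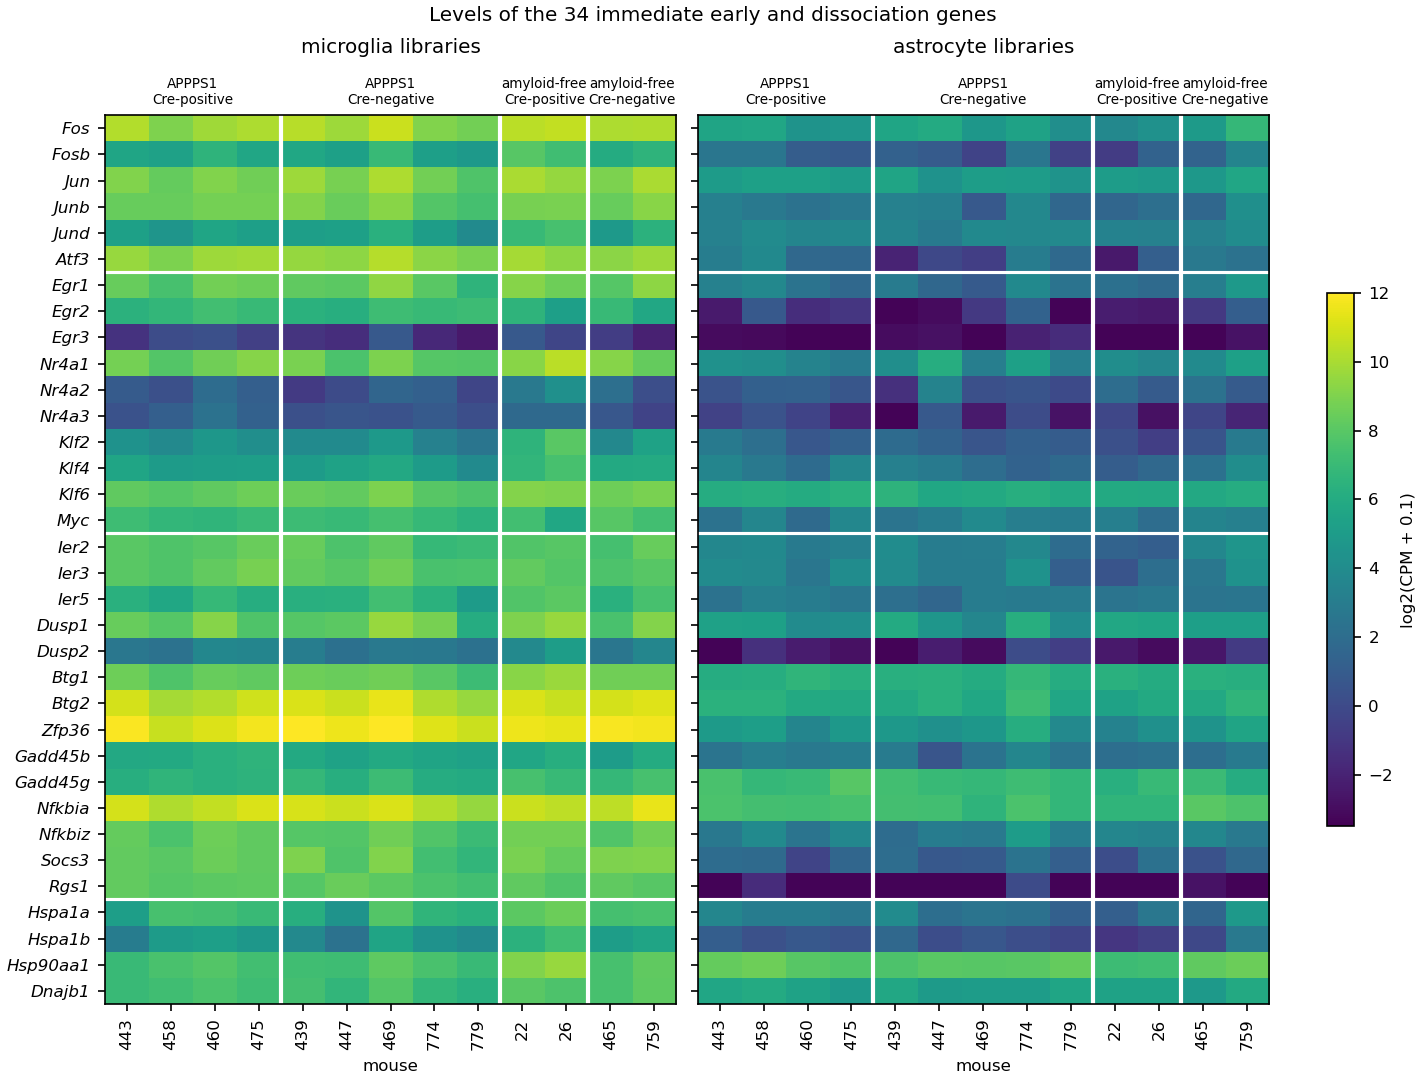
Level of each of the 34 members in the 26 libraries, as log2(CPM + 0.1), with a row per gene ordered by role and a column per mouse, microglia on the left and astrocytes on the right. Microglia columns are brighter, which marks higher levels, for nearly all genes. Hsp90aa1 and Gadd45g reach similar levels in both sorts (means of 261 and 107 CPM in microglia, 263 and 133 CPM in astrocytes). Nr4a2 is low in both (means of 3.68 CPM in microglia and 2.66 CPM in astrocytes).

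The AP-1 family, whose FOS and JUN members pair to bind DNA, was higher in microglia for all 6 members. Fos, the prototype of the immediate early genes, ranged from 419 to 1729 CPM with a median of 1094 over the 13 microglia libraries, and from 13.4 to 111 CPM with a median of 30.7 over the 13 astrocyte libraries. No astrocyte library reached the lowest microglia library, and the log2 difference was 5.37 ± 0.34 (SE, adjusted p = 2.20e-12). Atf3, a stress-induced partner of the JUN proteins, had 463 to 1249.7 CPM with a median of 744 in microglia and 0.0822 to 14.3 CPM with a median of 3.18 in astrocytes. Its log2 difference of 8.30 ± 0.67 was the widest of the 6 (adjusted p = 1.37e-10). Jund, the JUN protein with the steadiest expression in most tissues, had the narrowest, at 2.80 ± 0.22.

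Among the zinc finger, orphan nuclear receptor and MYC factors other than Egr3, 8 of 9 were higher in microglia. Egr2, a zinc finger factor of the EGR family, had the widest log2 difference of these, 8.16 ± 0.71, with 104 ± 35.6 CPM in microglia and 0.617 ± 0.861 CPM in astrocytes (SD, n = 13 each). Klf6, a Krüppel-like factor, ranged from 207 to 563 CPM with a median of 358 in microglia and from 52.1 to 90.4 CPM with a median of 65.3 in astrocytes. Nr4a2, an orphan nuclear receptor known for its role in dopamine neurons, did not pass: it ranged from 0.440 to 19.2 CPM with a median of 2.23 in microglia and from 0.287 to 10.8 CPM with a median of 1.83 in astrocytes, and its log2 difference was 0.73 ± 0.49 (adjusted p = 0.181). Its levels overlap across the sorts, unlike those of Fos. Egr3, another EGR factor, was the lowest member per kilobase of exon in both sorts, at 0.151 CPM per kb in microglia and 0.00970 CPM per kb in astrocytes.

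The feedback regulators held the most abundant members. Per kilobase of exon, the order in microglia was led by Nfkbia at 1067 CPM per kb, Zfp36 at 899 and Btg2 at 649, followed by Fos at 446, Atf3 at 352 and Ier3 at 242 CPM per kb. Nfkbia encodes the inhibitor that holds NF-kB in the cytoplasm, and its own gene is an NF-kB target. It ranged from 758 to 2887 CPM with a median of 1704 in microglia and from 97.1 to 259 CPM with a median of 166 in astrocytes. Zfp36, which encodes tristetraprolin and speeds the decay of AU-rich messages such as that of TNF, ranged from 1667 to 4595 CPM with a median of 3159.7 in microglia and from 10.2 to 71.4 CPM with a median of 26.1 in astrocytes. Its log2 difference was 7.41 ± 0.38 (adjusted p = 4.50e-14). Btg2, an antiproliferative factor that recruits the deadenylase complex, ranged from 770.3 to 2817 CPM with a median of 1876 in microglia and from 43.2 to 140.4 CPM with a median of 59.9 in astrocytes. Within microglia the ranges of Nfkbia, Zfp36 and Btg2 overlap. Ier3, a stress-response gene, ranged from 189 to 453 CPM with a median of 248.8 in microglia and from 1.32 to 20.9 CPM with a median of 7.96 in astrocytes.

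Rgs1, a regulator of G protein signalling in immune cells, had the lowest astrocyte level relative to microglia of the 34. It ranged from 159.5 to 356 CPM with a median of 269.9 in microglia, while 10 of the 13 astrocyte libraries had 0 counts and the highest had 0.917 CPM. Its fitted log2 difference of 13.41 rests on counts in 3 astrocyte libraries and is not a measured fold. Gadd45g, a growth arrest and DNA damage gene, was the feedback regulator that did not pass, with 107 ± 39.4 CPM in microglia and 133 ± 47.6 CPM in astrocytes (SD, n = 13 each) and a log2 difference of 0.36 ± 0.17 (adjusted p = 0.0513). The sign of that TMM-scaled difference is opposite to that of the unscaled CPM means. Gadd45g was the highest member per kilobase in astrocytes, at 114 CPM per kb, followed by Nfkbia at 99.9, Hsp90aa1 at 66.9, Btg2 at 26.1, Fos at 16.95 and Klf6 at 15.2 CPM per kb. The lead gene therefore differs between the sorts, and Nfkbia, Btg2 and Fos stand among the first 6 in both.

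The 4 heat shock genes split. Hspa1a and Hspa1b, paralogs that both encode inducible HSP70, had log2 differences of 4.84 ± 0.48 and 5.24 ± 0.44, and Dnajb1, the HSP40 co-chaperone, one of 2.55 ± 0.18. Hsp90aa1, the inducible form of HSP90, ranged from 127 to 767 CPM with a median of 186 in microglia and from 141 to 380.4 CPM with a median of 261 in astrocytes, so its levels overlap. Its log2 difference of 0.56 ± 0.13 passed (adjusted p = 0.000555), though the unscaled CPM median was lower in microglia. Without mice 22 and 26 the difference was -0.12 with an adjusted p of 0.474, while 31 of the other members still passed. Counts of Hspa1a and Hspa1b are uncertain, because 58.8% of the 50-base stretches of the Hspa1a transcript are also in Hspa1b and 62.3% of those of Hspa1b are in Hspa1a. Junb and Dusp1 are uncertain too, since each overlaps a gene on the opposite strand, Prdx2 and Ergic1, and the strand setting of the counting was not given.

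**Figure D2:**
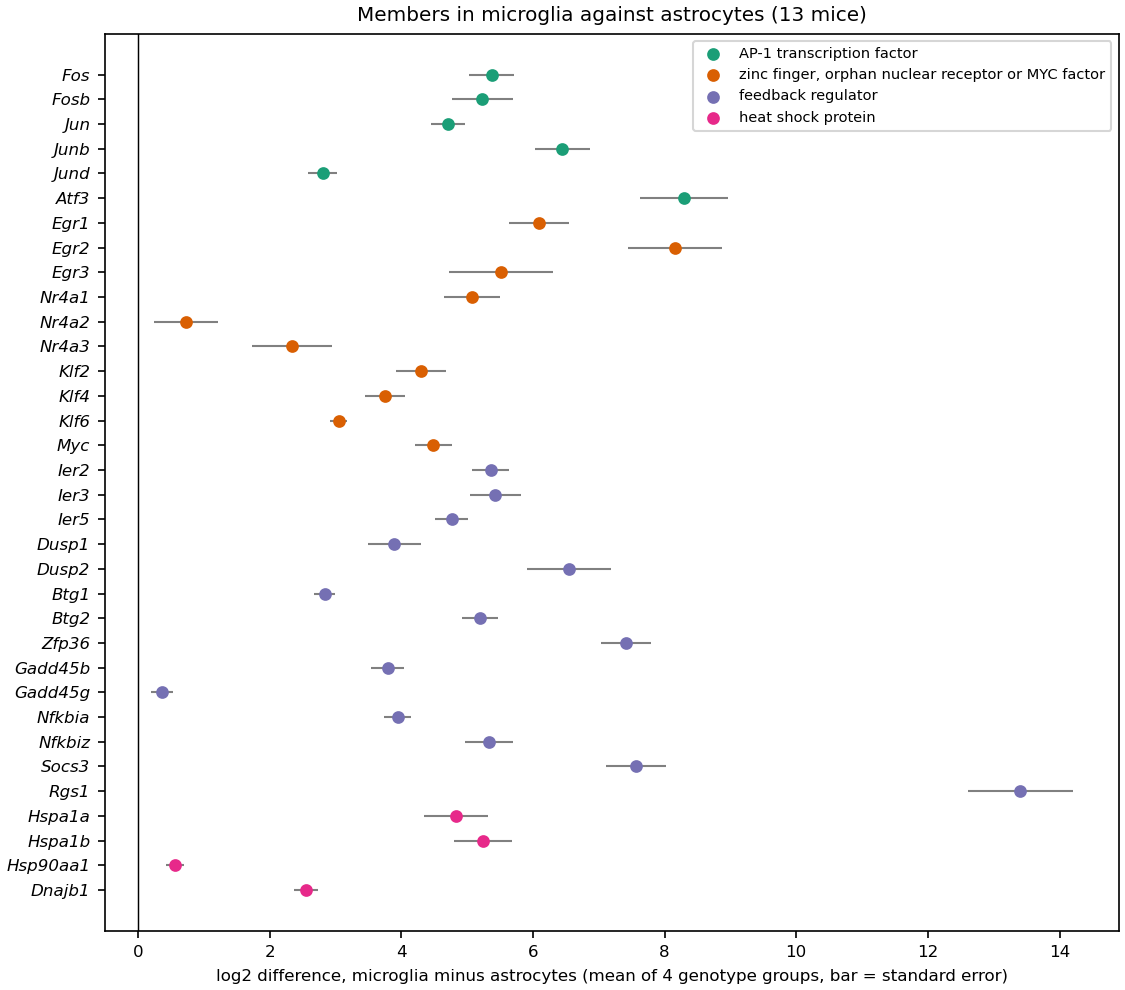
Log2 difference of each member between the sorts, microglia minus astrocytes, with bars of 1 SE, 13 mice a sort, coloured by role. Most members lie between 2.34 and 8.30, Nr4a2, Gadd45g and Hsp90aa1 lie between 0.36 and 0.73, and Rgs1 at 13.41 rests on counts in 3 astrocyte libraries.

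Microglial RNA in the astrocyte libraries was gauged by markers. The microglia markers in an astrocyte library summed to 0.248% to 0.850% of their sum in the microglia library of the same mouse, and the 34 members to 4.09% to 14.7%. For 4 members the mean in astrocytes was at or under 0.850% of that in microglia, namely Rgs1 at 0.0359%, Atf3 at 0.563%, Egr2 at 0.592% and Socs3 at 0.783%, and for the other 30 it was above it. The 0.850% came from mouse 26 alone, whose microglia library had the lowest microglia marker sum. The next highest share was 0.417%, in mouse 22, and of the 4 members only Rgs1 was under that. Mouse 774 had a monocyte and neutrophil marker sum of 429 CPM in its astrocyte library, against 0.896 to 10.6 CPM in the other 12, and was the highest astrocyte library for 10 of the 34 members. Mouse 759 was the highest for 12, with a monocyte and neutrophil marker sum of 5.79 CPM. The part of these markers in the members' levels was not tested.

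Related genes were placed beside the members. Of 34 other immediate early genes 22 were higher in microglia and 9 lower, with a median log2 difference of 2.30. All 22 other NF-kB genes and targets were higher, with a median of 6.71. Of all genes tested, 35.4% were higher in microglia. Of 18 other heat shock genes 9 were higher and 5 lower, with a median of 0.20, the lower ones of lowest p being Hspa4l (-3.23 ± 0.13, adjusted p = 8.86e-16) and Cryab (-6.69 ± 0.29, adjusted p = 2.44e-15). Cryab encodes alpha B-crystallin, a small heat shock protein that is abundant in oligodendrocytes and astrocytes. The lists thus differ in their counts, and the difference between lists was not tested. As for Egr3, a listed gene can pass the filter on low counts through its libraries of either sort alone, which fixes its direction. Such genes were not set apart in these lists, so the counts and medians include any of them.

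The second comparison asks what amyloid does to these genes in microglia. Averaged over both Cre states, 7 of 34 members were lower in APPPS1 than in amyloid-free microglia and 0 were higher. They were Klf2, Klf4 and Nr4a2 among the zinc finger and nuclear receptor factors, Jund of AP-1, Ier5 of the feedback regulators, and Hsp90aa1 and Hspa1b of the heat shock proteins. Of all 17593 genes tested 9.58% passed, and 3.52% were lower. At an unadjusted p under 0.05 there were 16 members and 27.2% of all genes. DESeq2 and the edgeR fit without a filter on low counts each called 12 members, 11 lower and 1 higher, where they called 15.5% and 7.45% of all genes. The members they added were Fosb, Dusp2, Btg1 and Gadd45g, which were lower, and Egr2, which was higher (log2 fold change of 0.73 by DESeq2 and 0.74 without a filter). The median log2 fold change of the members was -0.42, with 25 of 34 negative, where the median of all genes was -0.05.

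Klf2 and Klf4 are Krüppel-like factors that hold back inflammatory gene expression in myeloid cells and are also strongly expressed in endothelium. Klf2 (chr8:72319033-72321656, GRCm38) stood at 20.7, 13.5, 25.7 and 17.96 CPM in APPPS1 Cre-positive mice and at 15.3, 15.3, 28.4, 9.83 and 5.70 CPM in APPPS1 Cre-negative mice, against 94.3 and 266 CPM in amyloid-free Cre-positive mice and 13.2 and 42.5 CPM in amyloid-free Cre-negative mice. Mouse 26 was far above all others and mouse 22 second, and the remaining 11 mice lay between 5.70 and 42.5 CPM with both genotypes mixed. The log2 fold change was -1.92 ± 0.34 (SE, adjusted p = 0.00567). Klf4 (chr4:55527143-55532466) stood at 47.9, 32.6, 35.0 and 36.9 CPM in APPPS1 Cre-positive mice and at 32.1, 43.1, 56.7, 32.1 and 14.9 CPM in APPPS1 Cre-negative mice, against 102 and 182 CPM in amyloid-free Cre-positive mice and 61.2 and 63.8 CPM in amyloid-free Cre-negative mice. All 9 APPPS1 mice were below all 4 amyloid-free mice, and its log2 fold change was -1.22 ± 0.23 (adjusted p = 0.00829). Of the 34 members 1 had groups that did not overlap, where 4.23% of all genes did, so this count is under the share over all genes.

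Nr4a2 (chr2:57106830-57124003) stood at 1.87, 1.10, 3.91 and 2.23 CPM in APPPS1 Cre-positive mice and at 0.440, 0.931, 2.83, 2.28 and 0.724 CPM in APPPS1 Cre-negative mice, against 6.84 and 19.2 CPM in amyloid-free Cre-positive mice and 4.40 and 1.08 CPM in amyloid-free Cre-negative mice. These are low levels, and mice 26 and 22 were the highest, with a log2 fold change of -1.60 ± 0.47 (adjusted p = 0.0473). Jund (chr8:70698949-70700616) stood at 39.6, 23.5, 48.1 and 37.4 CPM in APPPS1 Cre-positive mice and at 37.0, 38.7, 79.8, 35.0 and 15.0 CPM in APPPS1 Cre-negative mice, against 123 and 179 CPM in amyloid-free Cre-positive mice and 29.7 and 89.4 CPM in amyloid-free Cre-negative mice. Again mice 26 and 22 led, mouse 469 of the APPPS1 group reached nearly the level of mouse 759, and the log2 fold change was -1.15 ± 0.32 (adjusted p = 0.037). Ier5, an immediate early gene known to act with HSF1 on heat shock genes (chr1:155096361-155099636), stood at 82.0, 53.9, 117 and 70.6 CPM in APPPS1 Cre-positive mice and at 78.9, 81.9, 157, 83 and 31.8 CPM in APPPS1 Cre-negative mice, against 218 and 269 CPM in amyloid-free Cre-positive mice and 80.9 and 181 CPM in amyloid-free Cre-negative mice. Mice 26, 22, 759 and 469 led here as they did for Jund, and the log2 fold change was -0.97 ± 0.29 (adjusted p = 0.0483).

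Hsp90aa1 (chr12:110690605-110702728) stood at 127, 186, 232 and 159.6 CPM in APPPS1 Cre-positive mice and at 152, 148, 290.3, 188 and 129 CPM in APPPS1 Cre-negative mice, against 543 and 767 CPM in amyloid-free Cre-positive mice and 179.5 and 297 CPM in amyloid-free Cre-negative mice. Mice 22 and 26 exceeded every other mouse, while the 2 amyloid-free Cre-negative mice lay within or just above the APPPS1 range, and the log2 fold change was -1.01 ± 0.19 (adjusted p = 0.00843). Hspa1b (chr17:34956436-34959238) stood at 8.10, 32.1, 37.2 and 25.8 CPM in APPPS1 Cre-positive mice and at 14.0, 4.99, 46.4, 20.9 and 15.3 CPM in APPPS1 Cre-negative mice, against 86.6 and 154 CPM in amyloid-free Cre-positive mice and 34.6 and 46.5 CPM in amyloid-free Cre-negative mice. Its lowest mice, 447 and 443, carried APPPS1 and its highest, 26 and 22, did not, with a log2 fold change of -1.48 ± 0.41 (adjusted p = 0.0376). Its paralog Hspa1a had a log2 fold change of -0.94 ± 0.43 and did not pass (adjusted p = 0.171).

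**Figure D3:**
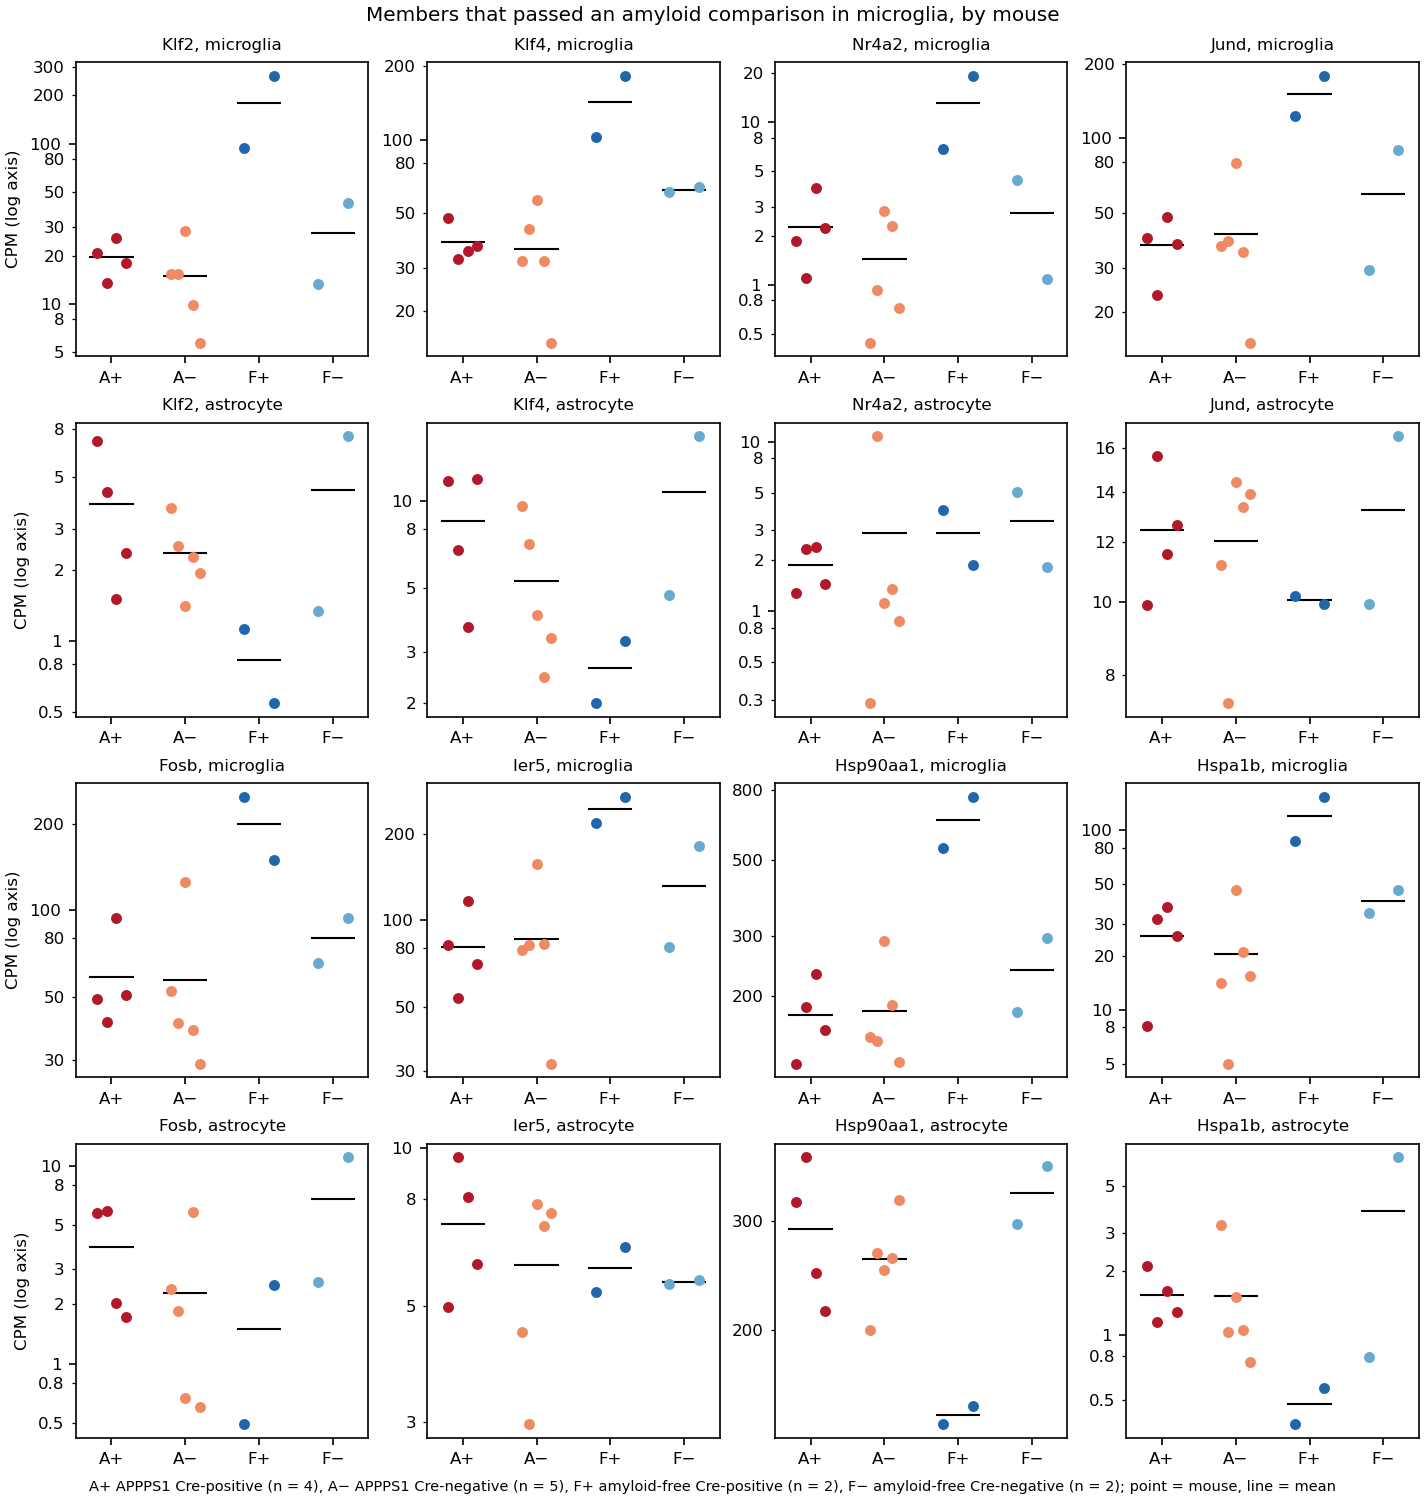
CPM on a log axis of Klf2, Klf4, Nr4a2, Jund, Fosb, Ier5, Hsp90aa1 and Hspa1b in each mouse, by genotype group, in microglia and in astrocytes. In microglia the amyloid-free Cre-positive mice 22 and 26 are the 2 highest points for each of these genes, mouse 26 first except for Fosb, for which mouse 22 leads at 248 CPM and mouse 26 follows at 149 CPM, and in astrocytes neither is the highest for any of them.

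Start-site windows from RefSeq, 250 bases before to 50 after the annotated start, were found for 27 of the 34 members and for 6 of these 7 genes, Hsp90aa1 being the exception. 4 of them are shown because they belong to the 2 members of lowest p or hold a match to a motif of an immediate early or heat shock factor. Capitals mark the match, to the MEF2 consensus in Klf2 (118 to 109 bases before the start) and Nr4a2 (167 to 158 before), and to GAANNTTC, the core pair of a heat shock element, in Hspa1b (104 to 97 before). Klf4 has no match to the motifs searched.
Klf2 (chr8:72318812-72319111, GRCm38.p6, plus strand): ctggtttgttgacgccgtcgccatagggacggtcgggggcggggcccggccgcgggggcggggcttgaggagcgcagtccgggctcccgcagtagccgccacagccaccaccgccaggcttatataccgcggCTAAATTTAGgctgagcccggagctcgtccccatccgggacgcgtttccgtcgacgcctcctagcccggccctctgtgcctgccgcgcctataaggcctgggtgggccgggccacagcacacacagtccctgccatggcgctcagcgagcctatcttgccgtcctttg
Klf4 (chr4:55532426-55532725, GRCm38.p6, minus strand): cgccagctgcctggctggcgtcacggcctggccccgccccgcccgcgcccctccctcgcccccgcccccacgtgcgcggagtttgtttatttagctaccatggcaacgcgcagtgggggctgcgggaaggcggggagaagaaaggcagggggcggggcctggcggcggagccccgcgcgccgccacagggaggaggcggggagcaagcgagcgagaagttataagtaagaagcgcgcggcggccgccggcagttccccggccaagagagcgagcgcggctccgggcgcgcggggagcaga
Nr4a2 (chr2:57123954-57124253, GRCm38.p6, minus strand): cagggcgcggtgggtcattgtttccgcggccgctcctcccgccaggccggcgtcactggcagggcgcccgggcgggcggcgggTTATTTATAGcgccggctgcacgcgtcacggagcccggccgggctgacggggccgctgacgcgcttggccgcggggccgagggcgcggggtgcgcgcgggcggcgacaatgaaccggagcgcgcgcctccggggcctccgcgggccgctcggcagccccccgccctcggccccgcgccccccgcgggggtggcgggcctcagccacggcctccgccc
Hspa1b (chr17:34959189-34959488, GRCm38.p6, minus strand): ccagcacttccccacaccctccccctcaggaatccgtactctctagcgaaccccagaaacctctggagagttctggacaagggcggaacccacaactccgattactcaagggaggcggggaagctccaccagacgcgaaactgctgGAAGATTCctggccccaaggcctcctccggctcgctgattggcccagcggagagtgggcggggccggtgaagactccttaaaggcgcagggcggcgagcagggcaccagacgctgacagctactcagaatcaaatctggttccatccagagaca

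The windows of Hspa1a and Hspa1b share 296 of 300 bases (98.7%), and Hspa1a holds the same GAANNTTC match at the same distance. Motifs were searched on both strands. The MEF2 consensus was found in 4 of the 27 member windows, Atf3, Nr4a2, Jun and Klf2, and in 3.26% of the windows of 27025 promoters. GAANNTTC was in 3, Jun, Hspa1a and Hspa1b, and in 7.95% of all. The NF-kB consensus was in 5, Fosb, Nfkbia, Fos, Nr4a1 and Ier3, and in 4.35% of all. The CArG box bound by SRF was in 1, Zfp36, and in 1.57% of all, TGACGTCA, the cAMP response element, was in Btg2 and Dusp1 and in 1.88% of all, and TGANTCA, the AP-1 site, was in 0 of 27 and in 7.93% of all. A match describes these letters only, and the windows reach no distal element.

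The other 27 members did not pass by edgeR. Closest to the threshold were Fosb, an AP-1 factor of lasting stimuli (-1.002 ± 0.30, adjusted p = 0.0525), Gadd45g (-0.61, adjusted p = 0.057), Btg1 (-0.65, adjusted p = 0.0629) and Dusp2, a phosphatase of MAP kinases in immune cells (-0.87, adjusted p = 0.0648). Fos itself stood at 1182, 523, 887 and 1094 CPM in APPPS1 Cre-positive mice and at 1288, 852, 1729, 545 and 419 CPM in APPPS1 Cre-negative mice, against 1368 and 1527 CPM in amyloid-free Cre-positive mice and 1078 and 1145 CPM in amyloid-free Cre-negative mice. Its lowest values were in APPPS1 mice and its highest was too, in mouse 469, so its groups overlap (log2 fold change -0.29 ± 0.29, adjusted p = 0.554). The abundant regulators had small values, 0.05 ± 0.25 for Zfp36, -0.00 ± 0.26 for Nfkbia and -0.23 ± 0.27 for Btg2, none of which passed. Egr2 had the highest positive value, 0.72 ± 0.28 (adjusted p = 0.119). By role, 1 of 6 AP-1 members, 3 of 10 zinc finger, nuclear receptor or MYC factors, 1 of 14 feedback regulators and 2 of 4 heat shock proteins passed.

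Cell markers moved with this comparison. The microglia marker sum was lowest in mouse 26, at 16828 CPM, and was 32401 CPM or more in every other mouse. Endothelial markers summed to 44.1 to 112 CPM in APPPS1 Cre-positive and 53.3 to 86.7 CPM in APPPS1 Cre-negative microglia, against 183 to 399 CPM in amyloid-free Cre-positive and 83.8 to 100.3 CPM in amyloid-free Cre-negative microglia, and 6 of 12 were lower in APPPS1. Of 12 astrocyte markers 5 were lower and 2 higher, with a median of -1.68. Monocyte and neutrophil markers summed to 765 to 2291 CPM in APPPS1 Cre-positive and 271 to 7157 CPM in APPPS1 Cre-negative microglia, against 4013 to 8271 CPM in amyloid-free Cre-positive and 1698 to 2743 CPM in amyloid-free Cre-negative microglia. With the mean level of markers of endothelium, neurons, oligodendrocytes, pericytes and astrocytes in the fit, 0 members and 9 of all genes passed. Without mice 22 and 26, a check added after the values had been seen, 0 members and 131 of all genes passed, with log2 fold changes of -0.61 for Klf2 (adjusted p = 0.589), -0.66 for Klf4 (adjusted p = 0.342) and -0.31 for Hsp90aa1 (adjusted p = 0.646). That check set the mean of both APPPS1 groups against the 2 amyloid-free Cre-negative mice alone, so it was not balanced for Cre.

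For the fits with a mouse left out, the share of all genes that passed is not given here. The count of members changed when single mice were left out. These counts alone cannot show whether the members changed more than other genes. Without mouse 26 the count was 0, and without mouse 759 it was 1, Klf4. Without mouse 443, 447 or 465 it was 4, without mouse 458, 475 or 774 it was 3, and without mouse 469 it was 12. Klf4 was lost in the fit without mouse 26 alone, and Klf2 and Hsp90aa1 in those without mouse 26 or 759. Amyloid-free groups hold 2 mice each, so the spread was estimated over all 4 groups.

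**Figure D4:**
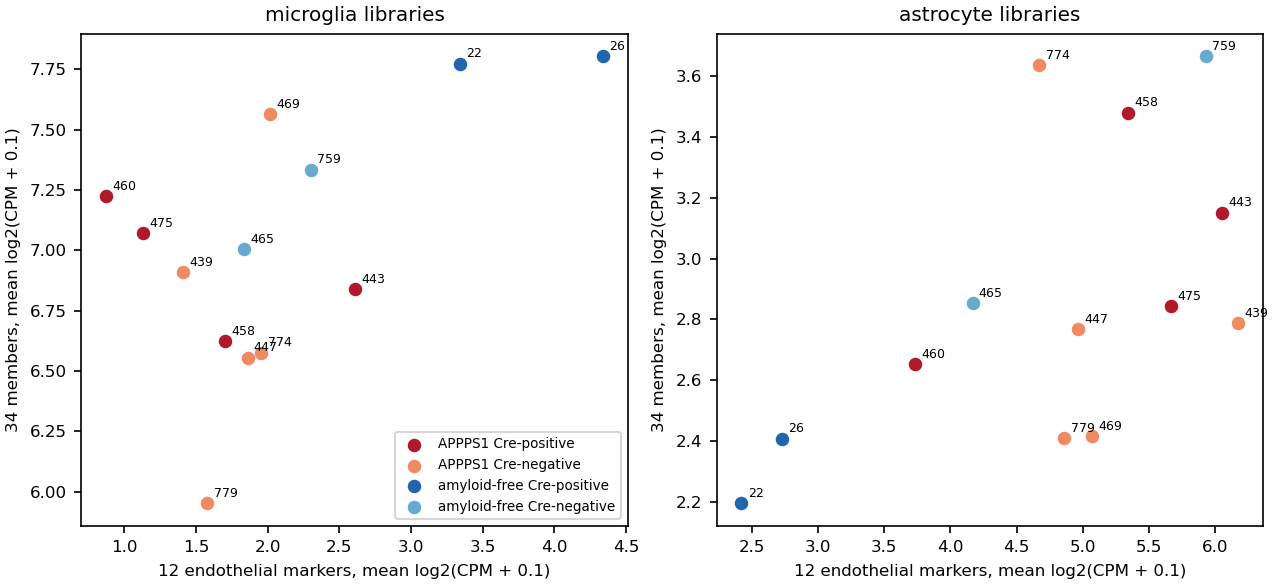
Mean of the 34 members against the mean of 12 endothelial markers, both as log2(CPM + 0.1), with a point per library labelled by mouse, microglia and astrocytes apart. In microglia mice 22 and 26 lie at the upper right, at member means of 7.77 and 7.81, and in astrocytes at the lower left, at 2.20 and 2.41, near mice 469 and 779 (2.42 and 2.41) on the member axis.

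Across the whole set the microglia of mice 22 and 26 had the highest mean member level, 7.77 and 7.81 log2 CPM, with the other 11 mice between 5.95 and 7.57. Mouse 26 was the highest for 11 of 34 members, mouse 22 for 5 and the APPPS1 mouse 469 for 7. Mouse 779, also APPPS1, was the lowest for 21 of 34. In astrocytes the order of these mice was different. Mice 22 and 26 averaged 2.20 and 2.41 log2 CPM there, mouse 22 was the lowest for 12 members, and the highest means were 3.67 in mouse 759 and 3.64 in mouse 774.

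Split by Cre status, the lower values in APPPS1 microglia passed among Cre-positive mice. By edgeR 5 of 34 members were lower and 0 higher, where 7.05% of all genes passed and 3.39% were lower. At an unadjusted p under 0.05 there were 14 members and 26.6% of all genes. DESeq2 and the edgeR fit without a filter each called 10 members, all lower, where they called 13.8% and 6.56% of all genes, adding Ier5, Dusp2, Nr4a2, Btg1 and Hspa1b. With only the 2 groups compared in the fit 9 members and 8.39% of all genes passed, the same members without Dusp2. The 5 members by edgeR were Hsp90aa1 (-1.71 ± 0.28, adjusted p = 0.0168), Klf2 (-3.02 ± 0.51, adjusted p = 0.018), Klf4 (-1.70 ± 0.33, adjusted p = 0.0189), Jund (-1.83 ± 0.46, adjusted p = 0.0327) and Fosb (-1.59 ± 0.44, adjusted p = 0.0432). Fosb stood at 49.1, 40.8, 93.8 and 50.4 CPM in APPPS1 Cre-positive mice, against 248 and 149 CPM in amyloid-free Cre-positive mice. In this contrast the marker lists moved too: 8 of 12 endothelial markers and 8 of 12 astrocyte markers were lower in APPPS1. The count was 0 without mouse 26, 1 without mouse 458, 2 without mouse 475, 3 without mouse 443 and 8 without mouse 22, 469 or 779, and 0 with the cell markers in the fit.

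Among Cre-negative mice 0 of 34 members passed by edgeR, where 0.313% of all genes did. An unadjusted p under 0.05 was found for 3 members and 11% of all genes, and DESeq2 called 0 members and 2.58% of all genes. The 4 members of lowest p were Klf4 (-0.73 ± 0.33, adjusted p = 0.426), Gadd45g (-0.59 ± 0.26), Dnajb1 (-0.66 ± 0.30) and Myc (-0.58 ± 0.32). Gadd45g stood at 112, 73.8, 137, 69.0 and 62.2 CPM in APPPS1 Cre-negative mice, against 113 and 178 CPM in amyloid-free Cre-negative mice. Dnajb1 stood at 166, 102, 236, 109 and 77.5 CPM in APPPS1 Cre-negative mice, against 182 and 281 CPM in amyloid-free Cre-negative mice. Mouse 469 lay between the 2 amyloid-free mice for both genes. Myc, a factor of growth and metabolism, stood at 138, 121, 176, 119 and 89.2 CPM in APPPS1 Cre-negative mice, against 248 and 160.1 CPM in amyloid-free Cre-negative mice. Of the 34 members 27 had negative values, with a median of -0.31 where that of all genes was -0.01.

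Whether the 2 amyloid effects differ was tested directly. The difference between Cre-positive and Cre-negative mice passed for 0 of 34 members and for 0% of all genes by edgeR. An unadjusted p under 0.05 was found for 2 members and 8.68% of all genes, and DESeq2 called 0 members and 0.29% of all genes. The smallest p-values belonged to Hsp90aa1 (-1.41 ± 0.40, adjusted p = 0.52), Klf2 (-2.19 ± 0.75, adjusted p = 0.524), Jund (-1.38 ± 0.67) and Klf4 (-0.97 ± 0.49). Without mouse 22 it passed for 1 member, Myc.

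**Figure D5:**
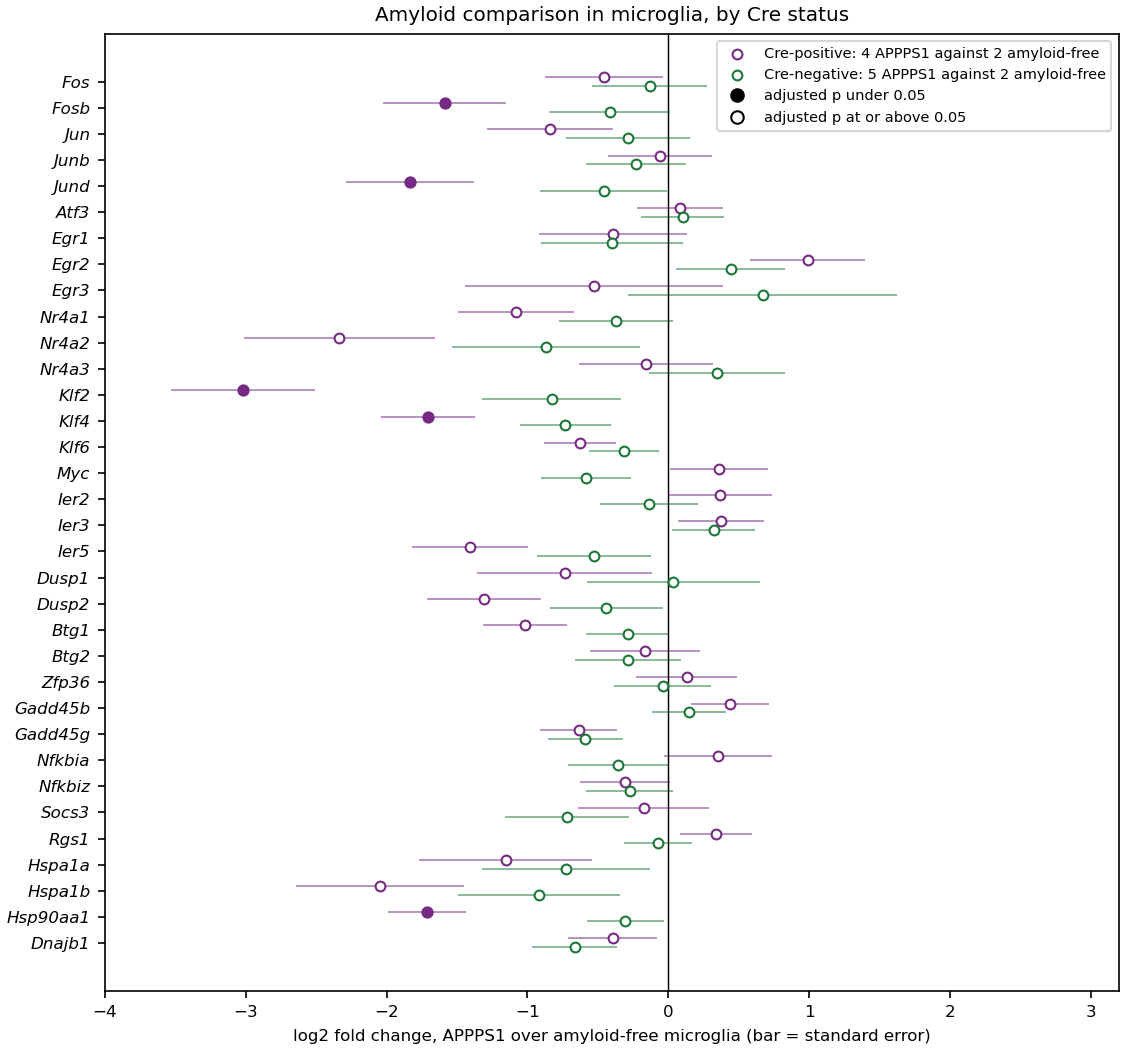
Log2 fold change of each member in microglia, APPPS1 minus amyloid-free, with bars of 1 SE, for Cre-positive and Cre-negative mice, filled where the adjusted p is under 0.05. The 5 filled points, Klf2, Hsp90aa1, Klf4, Jund and Fosb, lie between -3.02 and -1.59 in Cre-positive mice, and no Cre-negative point is filled.

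The third comparison asks whether lowering APOE4 in astrocytes, by Cre, altered these genes in microglia. Among APPPS1 mice 0 of 34 members passed between Cre-positive and Cre-negative microglia by edgeR, where 0.00568% of all genes did. There were 2 members and 3.5% of all genes at an unadjusted p under 0.05, and DESeq2 called 0 members and 0.0341% of all genes. The 4 members of lowest p were Nr4a3 (1.02 ± 0.37), Gadd45b (0.53 ± 0.21), Dusp2 (0.50 ± 0.33) and Nr4a2 (0.66 ± 0.56), each with an adjusted p of 1. Nr4a3, the third orphan nuclear receptor of its family, stood at 1.24, 2.15, 5.07 and 2.40 CPM in Cre-positive mice, against 1.11, 1.40, 1.23, 1.74 and 1.06 CPM in Cre-negative mice. Gadd45b stood at 57.1, 60.3, 81.2 and 96.9 CPM in Cre-positive mice, against 61.3, 43.8, 61.4, 46.4 and 42.0 CPM in Cre-negative mice. Dusp2 stood at 6.21, 5.04, 12.5 and 11.4 CPM in Cre-positive mice, against 8.26, 4.53, 6.81, 6.31 and 4.85 CPM in Cre-negative mice. The ranges of all 3 genes overlap. The median over the members was 0.06, where that of all genes was -0.01.

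Among amyloid-free mice 0 of 34 members passed between Cre-positive and Cre-negative microglia by edgeR, where 0.0114% of all genes did. At an unadjusted p under 0.05 there were 9 members and 14.8% of all genes. DESeq2 called 2 members, Klf2 and Hsp90aa1, and 1.97% of all genes. The lowest p belonged to Klf2 (2.60 ± 0.64, adjusted p = 0.179), Hsp90aa1 (1.36 ± 0.34, adjusted p = 0.179), Dusp2 (1.37 ± 0.49) and Klf4 (1.09 ± 0.41). Dusp2 stood at 14.0 and 35.5 CPM in Cre-positive mice, against 5.97 and 11.95 CPM in Cre-negative mice. This contrast is mice 22 and 26 against mice 465 and 759, and all 12 endothelial markers had positive values in the Cre-positive pair, with a median of 1.80, though 0 of them passed. Of 10 border macrophage markers 9 had negative values, with a median of -2.19, and 1 passed. The part of these markers in the members' values was not tested. Without mouse 22 it passed for 3 members, Klf2 and Hsp90aa1, which were higher, and Myc (-2.10), which was lower.

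Genes beyond the set were counted in the same fits. Of 32 other immediate early genes tested in microglia 11 were lower in APPPS1 over both Cre states and 1 was higher, with a median of -0.57. Lowest in p were Sik1, a kinase that feeds back on CREB (-1.89 ± 0.27, adjusted p = 0.00162), Pim1, a survival kinase (-1.94 ± 0.31, adjusted p = 0.00319), Cebpb, a myeloid transcription factor (-1.94 ± 0.31, adjusted p = 0.00341), and Fosl2, a further AP-1 member (-1.42 ± 0.27, adjusted p = 0.00771). Of 18 other heat shock genes 2 were lower, Dnaja1 (-0.59 ± 0.13, adjusted p = 0.0161) and Hsf2 (-0.78 ± 0.21, adjusted p = 0.0350), and 0 higher. Among 22 other NF-kB genes and targets the chemokines Ccl3 (1.43 ± 0.22, adjusted p = 0.00282) and Ccl4 (1.09 ± 0.21, adjusted p = 0.00862) were higher, while Rel, an NF-kB subunit (-0.87 ± 0.20, adjusted p = 0.0177), and Nfkbie, an NF-kB inhibitor (-0.58 ± 0.16, adjusted p = 0.0403), were lower. Among Cre-positive mice 11 of 32 other immediate early genes were lower and 0 higher, and among Cre-negative mice 0 of any of these lists passed.

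Astrocytes were asked the same questions. For amyloid over both Cre states 0 of 33 members and 0% of all 20052 genes passed by edgeR. An unadjusted p under 0.05 was found for 1 member and 7.03% of all genes, and DESeq2 called 0 members and 1.27% of all genes. The 4 members of lowest p were Gadd45g (0.56 ± 0.24, adjusted p = 0.653), Hsp90aa1 (0.31 ± 0.15), Ier2 (0.65 ± 0.34) and Ier3 (0.94 ± 0.54). Gadd45g stood at 190.0, 112, 127 and 253 CPM in APPPS1 Cre-positive mice and at 157, 126, 111, 148 and 111 CPM in APPPS1 Cre-negative mice, against 77.5 and 122 CPM in amyloid-free Cre-positive mice and 134 and 69.1 CPM in amyloid-free Cre-negative mice. Its highest values were in APPPS1 mice 475 and 443 and its lowest in amyloid-free mice 759 and 22, with overlap between the groups. Ier3 stood at 15.7, 13.7, 5.78 and 16.6 CPM in APPPS1 Cre-positive mice and at 15.5, 7.96, 7.80, 20.8 and 2.18 CPM in APPPS1 Cre-negative mice, against 1.32 and 4.11 CPM in amyloid-free Cre-positive mice and 6.03 and 20.9 CPM in amyloid-free Cre-negative mice. Low and high values occurred in both genotypes. Astrocyte levels of the 9 APPPS1 and the 4 amyloid-free mice did not overlap for 0 of 33 members, and for 0.15% of all genes.

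Among Cre-positive astrocytes amyloid gave 0 of 33 members by edgeR, where 0.663% of all genes passed. There were 6 members and 11.7% of all genes at an unadjusted p under 0.05. DESeq2 called 3 members, Ier2, Ier3 and Hsp90aa1, all higher in APPPS1, and 4.24% of all genes. Hsp90aa1 stood at 322, 380.4, 247 and 215 CPM in APPPS1 Cre-positive mice and at 199.6, 266, 250.1, 261 and 324 CPM in APPPS1 Cre-negative mice, against 141 and 150.4 CPM in amyloid-free Cre-positive mice and 297 and 368 CPM in amyloid-free Cre-negative mice. Mice 22 and 26 were the lowest, and the log2 fold change was 0.96 ± 0.23 (adjusted p = 0.0786). Ier2, an immediate early gene of the nucleus, stood at 12.7, 14.1, 7.34 and 9.40 CPM in APPPS1 Cre-positive mice and at 16.2, 7.99, 8.19, 13.2 and 3.81 CPM in APPPS1 Cre-negative mice, against 2.58 and 2.09 CPM in amyloid-free Cre-positive mice and 12.5 and 23.9 CPM in amyloid-free Cre-negative mice. Again mice 22 and 26 were the lowest, with a log2 fold change of 2.18 ± 0.52 (adjusted p = 0.0793). Nfkbia stood at 197, 166, 156 and 181 CPM in APPPS1 Cre-positive mice and at 166, 161, 97.1, 197 and 109.5 CPM in APPPS1 Cre-negative mice, against 99.4 and 101 CPM in amyloid-free Cre-positive mice and 259 and 201 CPM in amyloid-free Cre-negative mice, with a log2 fold change of 0.77 ± 0.25 (adjusted p = 0.21). Klf2 stood at 7.08, 4.28, 1.504 and 2.37 CPM in APPPS1 Cre-positive mice and at 3.68, 2.54, 1.42, 2.27 and 1.96 CPM in APPPS1 Cre-negative mice, against 1.12 and 0.545 CPM in amyloid-free Cre-positive mice and 1.34 and 7.43 CPM in amyloid-free Cre-negative mice, with one of 2.17 ± 0.79 (adjusted p = 0.279). Of the 33 members 28 had positive values, with a median of 0.77 where that of all genes was 0.05. All 12 endothelial markers had positive values too, with a median of 2.78, and 0 of them passed. Without mouse 439 it was 2 members that passed, Ier2 and Hsp90aa1, and without mouse 779 it was 1, Ier2.

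Among Cre-negative astrocytes 0 of 33 members and 0% of all genes passed by edgeR. At an unadjusted p under 0.05 there were 2 members and 4.06% of all genes, and DESeq2 called 0 members and 0.0948% of all genes. The lowest p belonged to Nfkbia (-0.65 ± 0.22), Egr1 (-1.54 ± 0.66), Ier2 (-0.89 ± 0.43) and Hspa1b (-1.32 ± 0.69), each with an adjusted p of 1. Egr1, the zinc finger factor most often used to mark active cells, stood at 7.57, 3.12, 1.76, 14.7 and 5.14 CPM in APPPS1 Cre-negative mice, against 8.48 and 28.6 CPM in amyloid-free Cre-negative mice. Mouse 759 was above the rest and mouse 465 among them. Hspa1b stood at 3.29, 1.04, 1.51, 1.06 and 0.752 CPM in APPPS1 Cre-negative mice, against 0.793 and 6.83 CPM in amyloid-free Cre-negative mice, the higher of these again from mouse 759.

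In astrocytes, the cells that Cre targets, human APOE was lower with Cre but still present. Among APPPS1 mice Cre gave 0 of 33 members there by edgeR, where 0.00997% of all genes passed. No member had an unadjusted p under 0.05, where 6.7% of all genes did, and DESeq2 called 0 members and 0.18% of all genes. The lowest p belonged to Nr4a1 (-1.12 ± 0.60, adjusted p = 0.79), Atf3 (1.46 ± 0.95), Gadd45g (0.35 ± 0.26) and Klf4 (0.64 ± 0.49). Nr4a1 stood at 20.3, 17.8, 10.5 and 7.38 CPM in Cre-positive mice, against 17.5, 71.5, 8.61, 40.0 and 8.75 CPM in Cre-negative mice. Atf3 stood at 8.16, 14.3, 3.18 and 3.09 CPM in Cre-positive mice, against 0.157, 0.803, 0.557, 7.84 and 3.36 CPM in Cre-negative mice. Klf4 stood at 11.8, 6.79, 3.68 and 11.99 CPM in Cre-positive mice, against 9.60, 7.12, 4.04, 2.46 and 3.36 CPM in Cre-negative mice. The 2 groups overlap for each of these genes. With 17 positive and 16 negative members, the median was 0.06 where that of all genes was -0.00.

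Among amyloid-free mice Cre gave 0 of 33 members in astrocytes by edgeR, where 0.204% of all genes passed. At an unadjusted p under 0.05 there were 9 members and 12.9% of all genes. DESeq2 called 4 members, Ier2, Hspa1b, Hsp90aa1 and Nfkbia, all lower in Cre-positive mice, and 4.36% of all genes. The lowest p belonged to Ier2 (-2.97 ± 0.58, adjusted p = 0.0592), Hsp90aa1 (-1.19 ± 0.26, adjusted p = 0.0719), Nfkbia (-1.20 ± 0.28, adjusted p = 0.0889) and Fos (-2.07 ± 0.65, adjusted p = 0.181). Fos stood at 13.4 and 20.6 CPM in Cre-positive mice, against 30.7 and 111 CPM in Cre-negative mice. Of 33 members 29 had negative values, with a median of -1.19 where that of all genes was -0.02. Other markers had negative values as well: all 12 endothelial markers had negative values with a median of -2.73, and 9 of 10 pericyte and smooth muscle markers with a median of -3.13, though 0 of either list passed. All 10 oligodendrocyte markers had negative values too, with a median of -1.69, and 0 passed. Their part in the members' values was not tested. The count of members was 2 without mouse 439, Ier2 and Hsp90aa1, and 1 without mouse 465, Ier2.

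The difference between the amyloid effects of Cre-positive and Cre-negative astrocytes passed for 0 of 33 members by edgeR, where 0.155% of all genes passed. An unadjusted p under 0.05 was found for 10 members and 11.4% of all genes. DESeq2 called 3 members, Ier2, Hsp90aa1 and Nfkbia, and 2.88% of all genes. The lowest p belonged to Ier2 (3.07 ± 0.67, adjusted p = 0.0814), Hsp90aa1 (1.30 ± 0.31, adjusted p = 0.108), Nfkbia (1.42 ± 0.33) and Klf2 (3.05 ± 1.01). Without mouse 439 it passed for 1 member, Ier2. Of the related lists 0 genes passed in any astrocyte comparison.

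The last comparison sets the sorts against each other. The amyloid effect in microglia minus that in astrocytes, over both Cre states, passed for 1 of 34 members, where 1.5% of all genes passed. At an unadjusted p under 0.05 there were 9 members and 15.6% of all genes, and DESeq2 called 3 members and 5.39% of all genes, adding Klf2 and Gadd45g. The member that passed by edgeR was Hsp90aa1 (-1.29 ± 0.26, adjusted p = 0.0131), which was lower in APPPS1 microglia and had a positive value of 0.31 ± 0.15 that did not pass in astrocytes. Klf2 was next (-2.54 ± 0.65, adjusted p = 0.0505), and 32 of 34 members had negative values, with a median of -0.56 where that of all genes was -0.09. Without mouse 26 or mouse 759 the count was 0, and without mouse 460 or 469 it was 2. When mice 22 and 26 are both left out, all amyloid-free mice that remain are Cre-negative. With mouse as a block the value for Hsp90aa1 was -1.27 with an adjusted p of 0.0581, and without mice 22 and 26 it was -0.04 with an adjusted p of 1. Of the related lists Pim1 (-2.43), Klf10 (-2.03) and Cebpb (-2.75) of the immediate early genes and Rel (-2.70) of the NF-kB genes passed.

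The levels of a member in the 2 sorts of a mouse were set side by side over the 13 mice for the 33 members tested in both. After adjustment over these 33 relations 0 passed for Pearson's r. The lowest p belonged to Hsp90aa1, with r = -0.65 (permutation p = 0.0155, adjusted p = 0.285) and Spearman's rho = -0.37 (permutation p = 0.210). Without the 2 mice farthest from the median in microglia its r was 0.096, and with each genotype group centred it was -0.03. Jun had r = 0.61 (permutation p = 0.0259, adjusted p = 0.285) and rho = 0.52 (permutation p = 0.0741), with r = 0.49 without the 2 farthest mice and 0.77 with groups centred.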

How the data were processed

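RNA from sorted microglia and astrocytes of 14 mice was made into SMARTer libraries, per the labels' protocols. Reads were handled with bcl2fastq, STAR and featureCounts of Subread on the builds GRCm38 and GRCh38, per the submitters' processing notes. Settings, the annotation release and strandedness are not given in the sources used here. The authors deposited raw counts per gene in 95966 rows, of 40481 mouse and 55093 human genes and 392 rows that repeat a gene with the same counts (276 mouse, 116 human), each kept once. Library totals of the 26 libraries used were 26139519 to 59165002 mouse gene counts. CPM was computed from these counts without further scaling, and per-kilobase levels with GENCODE M21 exon lengths. List means used log2 of CPM plus 0.1.

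Tests used edgeR 4.0.16 under R 4.3.3 on the mouse gene counts (quasi-likelihood F test, TMM scaling, default expression filter by group, 1 term per genotype group, 13 libraries a sort or 26 for comparisons of the sorts). Benjamini-Hochberg adjustment ran over every gene in the fit, with 0.05 as the threshold. Standard errors are the absolute log2 fold change over the root of its F statistic. Correlations used two-sided permutation tests with 100000 resamples. The scripts were tested on simulated data. Alternatives were DESeq2 1.42.0, its size factors, no filter, mouse 459 kept as labelled, cell markers as covariates, only the groups compared, mouse as a block and leaving out each mouse. Replicates are separate mice. Both sorts of a mouse come from the same animal; deviations of the paired libraries from their group means had correlations of -0.04 to 0.08.

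The 34 members, the related lists and the markers were chosen with earlier results of these data known. Values per mouse are given for members that passed, for the members of lowest p where none passed, and ranges for the 6 highest of each sort. The labels give 5 mice for each APPPS1 group, and the series description 4. Mouse 459 was left out: microglia markers averaged 11.2 and astrocyte markers 0.92 log2 CPM in the library labelled astrocyte, and 2.18 and 10.8 log2 CPM in the one labelled microglia. Sequences are from RefSeq (GRCm38.p6).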

Additional observations from a re-analysis of the deposited data

Results flagged for a closer look

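Rgs1 stood apart in 1 astrocyte library of each APPPS1 group. Among APPPS1 Cre-positive astrocytes mouse 458 had 0.253 CPM and the other 3 had 0, and among APPPS1 Cre-negative astrocytes mouse 774 had 0.917 CPM and the other 4 had 0. Of 134 member levels checked for a library far from its group these 2 stood out. Where all other libraries of a group have 0 counts, any library with counts is flagged. The usual chance rate of about 1 in 20 therefore does not hold for these 2. The amyloid effect on Hsp90aa1 differed between the sorts, by -1.29 on the log2 scale in microglia minus astrocytes (edgeR, adjusted p = 0.0131). With mouse as a replicate block it was -1.27 (adjusted p = 0.0581). Without mice 22 and 26, which leaves only Cre-negative amyloid-free mice, it was -0.04 (adjusted p = 1).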

How the results depend on the processing

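Counts of members that passed moved with the processing as follows. Without a filter on low counts, 12 members passed for amyloid in microglia over both Cre states, 10 in Cre-positive microglia, 2 for Cre in amyloid-free microglia, 2 for Cre in amyloid-free astrocytes, 1 for the difference by Cre in astrocytes and 2 for the difference of the amyloid effect between sorts, where 7.45%, 6.56%, 0.532%, 0.484%, 0.356% and 0.972% of all genes passed. With the DESeq2 test the same comparisons gave 12, 10, 2, 4, 3 and 3 members, where 15.5%, 13.8%, 1.97%, 4.36%, 2.88% and 5.39% of all genes passed, and amyloid in Cre-positive astrocytes gave 3, where 4.24% did. With only the groups compared in the fit, 9 passed in Cre-positive microglia, where 8.39% of all genes did. With mouse 459 kept as labelled, 0 passed for amyloid in microglia over both Cre states and 0 in Cre-positive microglia. For the difference between sorts 0 passed as well. The shares of all genes in the fits with this mouse kept are not given here. With cell markers as covariates 0 passed in microglia over both Cre states and 0 in Cre-positive microglia. Without mice 22 and 26, chosen after seeing the data, the amyloid-free mice were all Cre-negative. In these fits 0 passed for amyloid in microglia and 0 for the difference between sorts, and the sort difference of Hsp90aa1 turned to -0.12. The cause was not tested. DESeq2 size factors moved no count of members.

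With mouse as a replicate block, since both sorts of a mouse are paired by animal, 32 members differed between the sorts and 0 passed for the difference of the amyloid effect, where 1 passed without it; no other call changed under the block. Leaving out each mouse in turn gave 0 to 12 members for amyloid in microglia over both Cre states, 0 to 8 in Cre-positive microglia, 0 to 3 for Cre in amyloid-free microglia and 0 to 1 for the microglial difference by Cre. In astrocytes it gave 0 to 2 for amyloid in Cre-positive mice, 0 to 2 for Cre in amyloid-free mice and 0 to 1 for the difference by Cre. Between the sorts it gave 32 to 33 members and 0 to 2 for the difference of the amyloid effect. In the other comparisons and the relation of the sorts over mice it gave 0 to 0. The share of all genes that passed in each fit with a mouse left out is not given here. These counts, here and above, therefore describe the members only. Depth was high in all libraries, and 2 amyloid-free mice a group limit the precision.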
